A study of Mus musculus with 22 samples.

Results

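The unmapped GABA neuron nuclei of mouse hypothalamus are described here. They were chosen among the nuclei to which label transfer gave no cell type: a nucleus was counted in when it held at least 1 UMI (a unique molecular identifier, counted once per captured transcript) of Slc32a1, Gad1 or Gad2 and 0 UMIs of Slc17a6. The rule took 4878 of 11986 unmapped nuclei (40.7%), or 19.5% of the 24965 nuclei of the series. They are called GABA nuclei below. The other unmapped nuclei were 1384 with Slc17a6 and none of the 3 GABA genes (the Slc17a6 nuclei), 845 with both and 4879 with none of the 4 genes.

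All nuclei came from male Lep ob/ob mice, leptin-deficient and obese, that were 11 weeks old. Each mouse had received 1 intracerebroventricular injection of 3 µg recombinant human FGF1 in PBS (FGF1 mice) or of PBS alone (vehicle mice), and the vehicle mice were pair-fed to the FGF1 mice. Hypothalamic punches were frozen on Day 1 (3 FGF1 and 3 vehicle mice) or Day 5 (2 FGF1 and 2 vehicle mice), and 1 library was made per mouse. All groups lacked leptin, so no lean reference was part of the design, and the transcripts of fewer responding cells cannot be told apart from less RNA per cell in sums over nuclei.

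In the hypothalamus, GABA neurons are the principal inhibitory cells. Gad1 and Gad2 encode the glutamate decarboxylases that make GABA, and Slc32a1 encodes the transporter that loads it into synaptic vesicles, whereas Slc17a6 encodes the vesicular glutamate transporter of most excitatory hypothalamic neurons. Hypothalamic GABA neurons arise largely from progenitors that use Dlx-family transcription factors, and they differ in peptides, receptors and channels, Agrp neurons of the arcuate nucleus being the best-known type that drives feeding.

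The GABA nuclei numbered 997, 507 and 217 in Day 1 FGF1 mice 1, 2 and 3, and 270, 500 and 236 in Day 1 vehicle mice 1, 2 and 3. On Day 5 they numbered 524 and 894 in FGF1 mice 37 and 45, and 609 and 124 in vehicle mice 28 and 38. Summed over a mouse, they held 555346 to 2696946 UMIs. A GABA nucleus had a median of 2749.5 UMIs (range 1358 to 10760) and 1630.5 genes. In the first principal component of the summed counts (24.7% of the variance), Day 1 FGF1 mouse 1 (-57.6) and Day 1 vehicle mouse 2 (-33.9) stood at the same end, so results on Day 1 were also computed without these mice. Of 24645 barcode sequences, 318 occurred in more than 1 library, and 22 GABA nuclei shared a barcode with another GABA nucleus.

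Neuronal transcripts were seen more often in these nuclei than in astrocytes. Snap25, a synaptic fusion protein, had a UMI in 89.3% of the GABA nuclei, Syt1, the synaptic calcium sensor, in 94.3% and Meg3, a long non-coding RNA abundant in neuron nuclei, in 100%, against 55.3%, 41.0% and 64.2% of the 1538 astrocyte nuclei. Since astrocytes also hold them, a UMI of these genes does not show the label of a single nucleus. Gad2 was seen in 75.7% of the GABA nuclei, Gad1 in 38.7% and Slc32a1 in 19.3%, and 2437 nuclei (49.96%) qualified on a single UMI. In the annotation the same rule was met most often by GABA1 (87.0%) and n02.Gm8773/Tac1 (81.1%) nuclei, and by 9.66% of Glu4 and 12.3% of Glu5 nuclei. Other GABA types met it less often, with 58.2% of GABA15, 46.3% of Agrp neuron and 41.7% of GABA14 nuclei. The rule was also met by non-neuronal nuclei, namely 29.0% of astrocytes, 39.3% of oligodendrocytes and 39.1% of microglia. With at least 2 UMIs required, these shares fell to 11.4%, 18.2% and 21.8%, and those of GABA1 and n02.Gm8773/Tac1 nuclei to 46.8% and 61.0%. Those of Agrp neuron and GABA14 nuclei fell to 17.3% and 18.75%. The unmapped nuclei as a whole, at 40.7% with 1 UMI and 20.4% with 2, lay near the shares of oligodendrocytes and microglia.

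**Figure D1:**
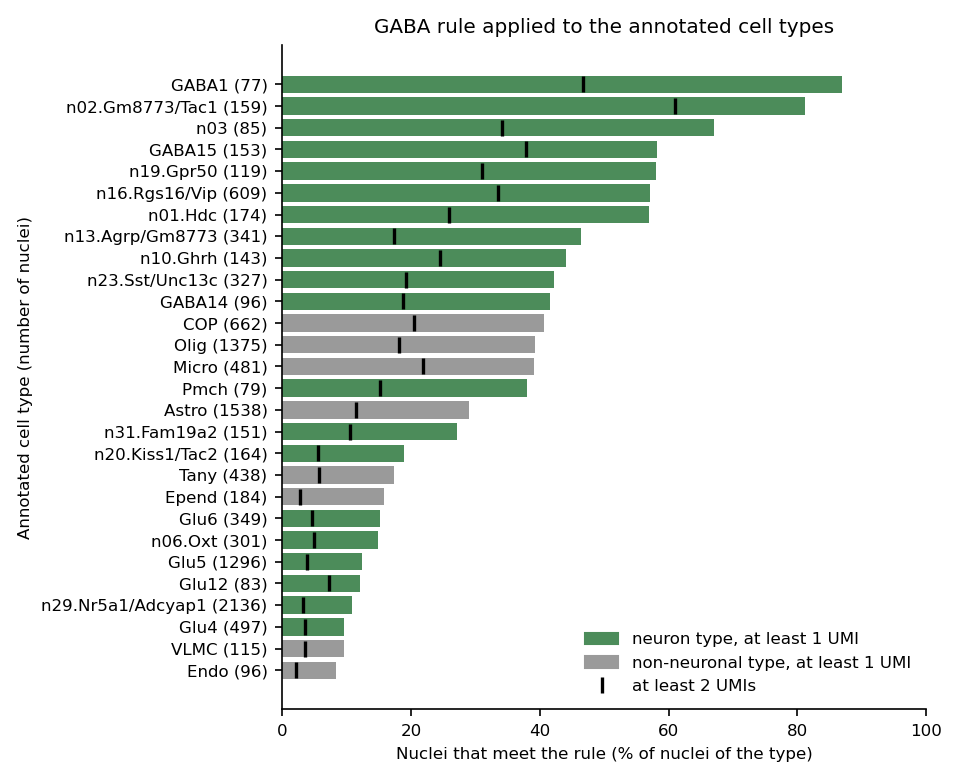
The share of nuclei (percent, horizontal axis) that meet the GABA rule is drawn for each annotated cell type (vertical axis, number of nuclei in brackets), with bars for at least 1 UMI and ticks for at least 2 UMIs. Neuron types (green) run from 9.66% to 87.0% and non-neuronal types (grey) from 8.33% to 40.6%, so a single UMI of these genes also occurs in cells outside the class.

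Astrocytes had a median depth close to that of the GABA nuclei (2693.5 against 2749.5 UMIs). Whether the rule genes' UMIs in non-neuronal nuclei were free RNA was not tested. A UMI of at least 1 listed astrocyte, oligodendrocyte, OPC, microglia, tanycyte, ependymal, endothelial or mural marker was present in the GABA nuclei except 1948 (39.9%), and comparisons were repeated on those 1948.

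The best label that the transfer had offered below its 75% cut had a median confidence of 0.309 (quartiles 0.211 and 0.458) in the GABA nuclei. The most frequent were n30.Nr5a1/Nfib (660 nuclei, 13.5%), n07 (630, 12.9%), n29.Nr5a1/Adcyap1 (493, 10.1%) and n03 (460, 9.43%). Among the Slc17a6 nuclei these labels took 20.2%, 2.75%, 31.1% and 3.61%, in the same order. Slc17a6 had a UMI in only 36.8% of annotated Glu4, 41.3% of Glu5 and 35.2% of n29.Nr5a1/Adcyap1 nuclei. A count of 0 UMIs of Slc17a6 therefore does not exclude an excitatory neuron. Read the other way, the rule was met most often by unmapped nuclei whose best label was n05.Nfix/Htr2c (72.1%), n09.Th/Slc6a3 (65.9%) or n24.Sst/Pthlh (63.6%), and least often by n29.Nr5a1/Adcyap1 (22.6%), n31.Fam19a2 (25.3%) and n06.Oxt (27.5%). The 21 labels with at least 50 unmapped nuclei had a median of 51.9%. Nuclei that miss the rule need not hold Slc17a6: only 2.19% of those with n05.Nfix/Htr2c and 1.91% with n09.Th/Slc6a3 had Slc17a6 and no GABA gene.

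Some genes that the rule did not read changed in level along its threshold. The UMIs of a class were pooled over the 10 mice and given as CPM (each gene's UMIs scaled to a common total over all genes, here with no further scaling). Dlx6os1, the antisense RNA of the Dlx5 and Dlx6 locus, stood at 9.35 CPM in the Slc17a6 nuclei, 23.1 in nuclei with none of the 4 genes, 41.0 in GABA nuclei with 1 UMI and 52.9 in those with 2 or more. It overlaps Dlx6 on the opposite strand (chromosome 6, 6820189 to 6871592, minus strand, GRCm38), and the use of strand in counting is not stated, so its values may include reads of Dlx6. Sim1, a transcription factor of excitatory paraventricular neurons, ran the other way, with 124, 91.5, 41.0 and 25.3 CPM in the same order. For these genes the GABA nuclei with 1 UMI were between the nuclei just outside the threshold and those well inside it. Gal (209.7 CPM with 1 UMI and 208.7 with 2 or more), Npy (151 and 139) and Esr1 (46.7 and 45.9) were not higher with more UMIs. Median depth was 2725.5, 2260, 2509 and 3062 UMIs in that order, and nuclei with both kinds of gene were the deepest (4841 UMIs). Of those 845 nuclei, 642 had been left out by a single Slc17a6 UMI, and their Dlx6os1 level was 23.3 CPM.

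**Figure D2:**
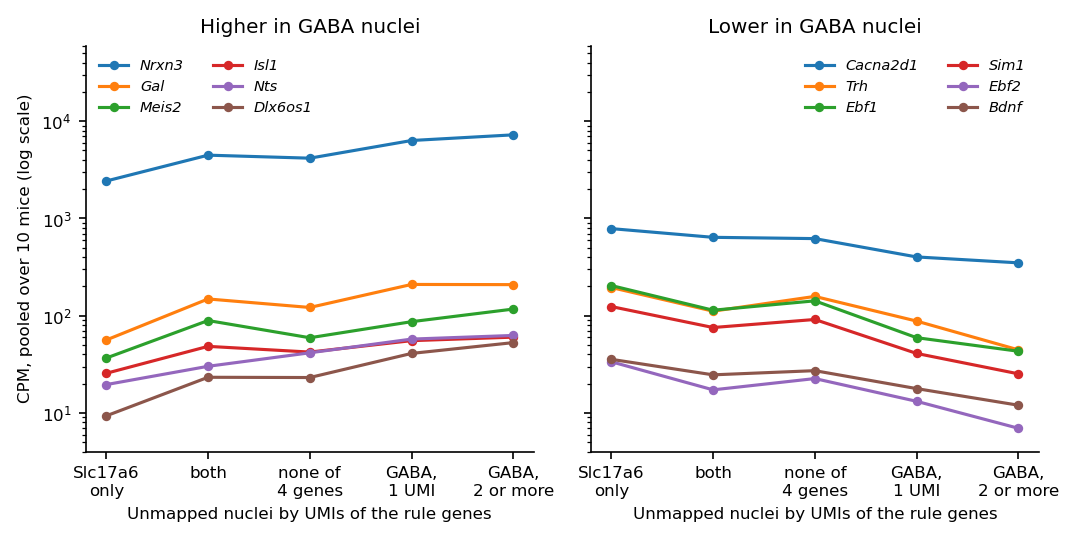
CPM pooled over 10 mice (vertical axis, log scale) is plotted for 12 genes outside the rule in 5 classes of unmapped nuclei (horizontal axis), ordered by UMIs of the rule genes. From Slc17a6 nuclei to GABA nuclei with 2 or more UMIs, Dlx6os1 goes from 9.35 to 52.9 CPM and Nrxn3 from 2427 to 7238, while Ebf1 goes from 204 to 43.1 and Trh from 195 to 44.6.

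Against the Slc17a6 nuclei of the same mice, the GABA nuclei carried more transcripts of Dlx6os1, Gal, Nts and Nrxn3 and fewer of Ebf1, Sim1 and Trh. Of 8607 genes tested, 310 (3.6%) differed, 116 higher and 194 lower in the GABA nuclei (edgeR quasi-likelihood test with mouse as a block, FDR below 0.05). The differences were mostly small, with a median absolute log2 fold change of 0.37 among the 310, and 26 genes differed by at least 1 on the log2 scale (11 higher, 15 lower). In all 10 mice, 47 of the 116 were higher and 70 of the 194 were lower. With a minimum of 2 UMIs for both classes, 112 of 4756 genes tested passed. Without nuclei holding a non-neuronal marker 124 of 4322 passed, and with every nucleus thinned to 1500 UMIs 158 of 5712. Fewer genes were tested in these settings, so the counts do not compare directly with 310. From here on, levels within a test are CPM after TMM scaling, which sets libraries to a common composition.

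Among lineage transcription factors, Dlx6os1 had 27.1, 57.0 and 66.3 CPM (lowest, median and highest mouse) in GABA nuclei against 0, 5.93 and 30.9 in Slc17a6 nuclei. It was higher in 10 of 10 mice, by 2.32 ± 0.20 (log2 fold change ± SE, FDR 7.68e-19). It had a UMI in 13% of GABA nuclei, in 2.46% of Slc17a6 nuclei and in 1.37% of astrocytes. Meis2, a homeobox gene of the lateral ganglionic eminence lineage, was higher by 1.50 ± 0.21, and Isl1, needed in arcuate neuron development, by 1.15 ± 0.14, each in 10 of 10 mice. Meis2 had a UMI in 16.3% of GABA nuclei and 14.6% of astrocytes, so its share of nuclei is near the background although its level differed from that of the Slc17a6 nuclei. Esr1, the estrogen receptor (0.54 ± 0.13), and Rorb (0.45 ± 0.11) were also higher. Rorb passed in 8 of 17 settings (FDR up to 0.137) and had a UMI in 34.3% of GABA nuclei and 69.8% of astrocytes, whereas Isl1 had one in 15.5% and 4.88% and Esr1 in 11.9% and 4.88%. Foxp2 was lower (-0.39 ± 0.06). Of the 25 listed factors 11 were tested, and 6 were higher, 1 lower and 4 not called, where 3.6% of all genes were called. The median of the 11 was 0.54 against -0.01 over all genes.

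Ebf1, Sim1 and Ebf2 were lower. Ebf1, a helix-loop-helix factor of the Ebf family, had 34.8, 59.6 and 68.8 CPM in GABA nuclei and 136, 212 and 376 in Slc17a6 nuclei. The 2 ranges did not overlap, and the fold change was -2.05 ± 0.08 (FDR 1.95e-35, lower in 10 of 10 mice). Sim1 ran from 18.6 to 56.0 CPM in GABA nuclei and from 70.0 to 201 in Slc17a6 nuclei (-1.98 ± 0.14), and Ebf2 was lower by 1.76 on the log2 scale (log2 fold change -1.76 ± 0.18). Of 20 listed excitatory-lineage factors, which do not include Ebf1, only 3 were expressed enough to be tested. Of these 3, Sim1 and Ebf2 were called, where 3.6% of all genes were called in either direction.

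Neuropeptides split by identity. Gal, which encodes galanin, had 108, 161 and 405 CPM in GABA nuclei and 8.75, 39.3 and 101 in Slc17a6 nuclei (1.86 ± 0.16, FDR 5.73e-06). Neurotensin (Nts) was higher by 1.56 ± 0.16, neurokinin B (Tac2) by 1.05 ± 0.24, prepronociceptin (Pnoc) by 1.00 ± 0.17, Npy by 0.65 ± 0.12 and proenkephalin (Penk) by 0.55 ± 0.15. Trh, which encodes thyrotropin-releasing hormone, had 19.5, 50.7 and 147 CPM in GABA nuclei and 77.7, 159 and 455 in Slc17a6 nuclei, lower in 10 of 10 mice (-1.68 ± 0.19). Substance P precursor Tac1 was lower as well (-0.80 ± 0.07). Of 13 peptide genes tested, 6 were higher and 2 lower, where 3.6% of all genes were called in either direction.

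Peptide transcripts could not be assigned to single nuclei. Sst had a UMI in 19.4% of GABA nuclei and 27.7% of astrocytes, Npy in 18.3% and 35.0%, Agrp in 21.9% and 32.1%, Gal in 19.2% and 19.6%, and Pmch in 18.2% and 44.1%. These shares of GABA nuclei lie at or below the background in astrocytes. Some other peptides lay above it by less than 2 times, such as Pnoc (10.5% and 5.59%), Nts (8.30% and 5.59%) and Penk (7.44% and 4.62%). Peptide shares also varied widely among mice. Oxt was seen in 17.5% of the GABA nuclei of Day 1 FGF1 mouse 1 and in 0.382% to 4.76% of those of the other mice, and Hcrt in 12.8% against 0% to 7.22%, where 0 of 524 nuclei, in Day 5 FGF1 mouse 37, allows a share of up to 0.573% of nuclei with a UMI (counting error only; this is no limit on nuclei that express the gene). No listed peptide was seen in GABA nuclei at 2 or more times its share in astrocytes, so no subset was formed by peptide.

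Channel, receptor and adhesion genes were found in both directions. Grik3, a kainate receptor subunit, had 83.1 to 148 CPM in GABA nuclei and 26.3 to 115 in Slc17a6 nuclei (1.23 ± 0.11, 10 of 10 mice). The auxiliary calcium channel subunits went in both directions, Cacna2d3 (0.68 ± 0.05) and Cacna2d2 (0.43 ± 0.10) higher and Cacna2d1 lower (-1.08 ± 0.08). Of 22 potassium channel genes tested, only the sodium-activated channel Kcnt2 was higher (0.42 ± 0.06). The channel genes Kcnq5, Kcnj6 and Kcnq3 and the auxiliary subunit Kcnip4 were lower, by 0.29 to 0.42 on the log2 scale. Over all genes, 3.6% were called in either direction.

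Of 30 synaptic adhesion genes tested, 3 were higher and 11 lower, where 3.6% of all genes were called in either direction. The presynaptic neurexin Nrxn3 had 4551 to 9219.8 CPM in GABA nuclei and 2097 to 3378 in Slc17a6 nuclei (1.50 ± 0.09), and Sdk1 (0.55 ± 0.06) and Lrrc4c (0.26 ± 0.03) were higher too. Cntn5 was lower by a small amount (-0.29 ± 0.04), and Cntnap5b by more (-0.79 ± 0.05). Of the 17 GABA receptor and inhibitory scaffold genes tested none was called by edgeR. Bdnf (-1.28 ± 0.16), the calcitonin receptor Calcr (-0.96 ± 0.14) and the calcium-binding protein gene Calb2 (-0.81 ± 0.08) were lower in GABA nuclei, as were Nos1 and Calb1.

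Further genes with large differences had varied roles. Ecel1, an endopeptidase-family gene of neurons, was higher (1.33 ± 0.18). Tmem163, a zinc transporter gene (-1.21 ± 0.08), Adamts2, a procollagen protease gene (-1.58 ± 0.16), the neurite growth gene Nrn1 (-1.81 ± 0.19), Chst8 (-1.42 ± 0.15), Mdga1 (-1.34 ± 0.14) and Dpf3 (-1.04 ± 0.13) were lower. A pair of long non-coding RNA genes was called as well, Gm38505 (1.40 ± 0.16) and Gm2694 (-1.80 ± 0.19). Each overlaps a gene on the opposite strand (Sox2ot, and Cbln1 with 1700120C18Rik), and the use of strand in counting is not stated, so these values may include reads of their partners. Among uptake and transmitter genes, Abat, which breaks down GABA (0.34 ± 0.08), and Ddc, the aromatic amino acid decarboxylase (0.65 ± 0.12), were higher. Of the 5 pan-neuronal genes Syt1 was higher (0.32 ± 0.04) and Meg3 lower (-0.16 ± 0.03), where 3.6% of all genes were called. Few genes of the glial lists could be tested between the classes (3 of 7 astrocyte, 2 of 6 oligodendrocyte, 2 of 6 microglia and 1 of 6 tanycyte and ependymal markers, 1 of 14 response genes and no OPC, endothelial or mural marker), and edgeR called none of them.

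Some of these calls depended on the setting. Calb1 passed in 9 of 17 settings (FDR up to 0.562), Nos1 in 9 of 14 (up to 0.249) and Penk in 10 of 15 (up to 0.874, with a log2 fold change of 0.17 at the lowest). Abat, Esr1, Tac2, Foxp2, Meg3, Cacna2d2, Trh, Kcnj6, Kcnq3, Kcnq5 and Cntn5 each lost the call in 1 to 3 settings.

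**Figure D3:**
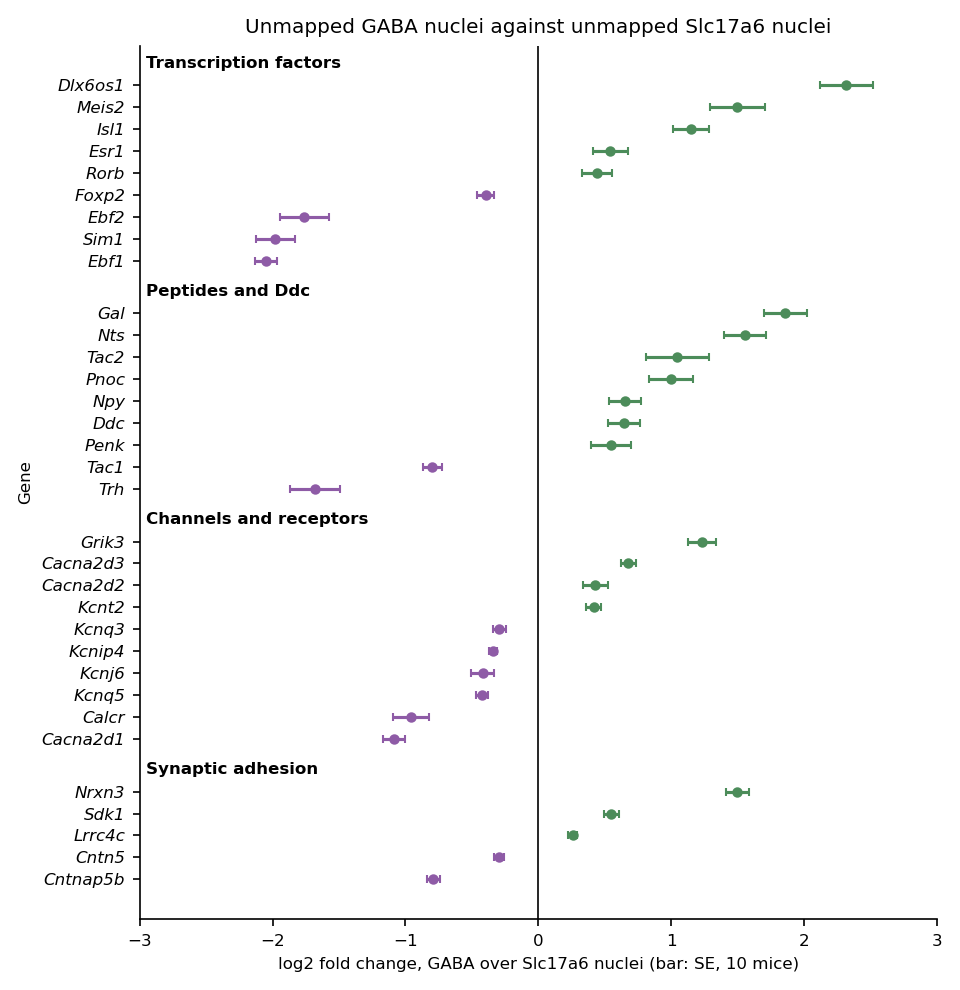
Log2 fold change of GABA over Slc17a6 nuclei (horizontal axis, points, with SE bars from edgeR over 10 mice) is shown for called genes (vertical axis) grouped by role. Dlx6os1 (2.32), Gal (1.86) and Nrxn3 (1.50) lie farthest to the right in their groups, and Ebf1 (-2.05), Trh (-1.68) and Cacna2d1 (-1.08) farthest to the left.

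The GABA nuclei were also divided by single lineage genes that lie above background, those with a UMI in at least 10% of GABA nuclei and at 2 or more times the share in astrocytes. Nuclei with a UMI of the gene were deeper than those without (3286 to 3783 against 2661 to 2687 median UMIs over the 4 genes described), and the part of depth in these results was not tested. Nuclei with Ddc (730) differed in 19 genes (0.274% of those tested). The factor Onecut2 (0.88 ± 0.15) and the kainate receptor auxiliary gene Neto1 (0.52 ± 0.08) were higher. The strongest, 1700042O10Rik (1.92 ± 0.12), lies inside Ddc on the opposite strand (chromosome 11, 11868123 to 11885321, GRCm38), so its reads may be those of the gene that defined the subset. Nuclei with Isl1 (758) differed in 15 genes (0.217%), with more Pomc (0.97 ± 0.15), the thyroid hormone receptor gene Thrb (0.41 ± 0.07) and Meis2 (0.42 ± 0.10), and less Nxph1 (-0.36 ± 0.07) and Ephb1 (-0.45 ± 0.11). Pomc averaged 57.8 ± 63.2 against 29.1 ± 39.2 CPM, higher in 9 of 10 mice. It had a UMI in 4.67% of all GABA nuclei and in 7.09% of astrocytes, so its share is below that background. Its pooled, unscaled level was 66.1 CPM in GABA nuclei with 1 UMI of the rule genes and 19.5 in those with 2 or more.

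Nuclei with Dlx6os1 (633) differed in 8 genes (0.122%), with more Nfib (0.56 ± 0.11), Synpr (0.39 ± 0.09), Tcf4 (0.37 ± 0.08) and Kcnt2 (0.31 ± 0.07) and less Tac1 (-0.51 ± 0.12). Nuclei with Esr1 (579) differed in 7 genes (0.103%). Cadps2, a gene of vesicle release (0.43 ± 0.07), and Stxbp6 (0.57 ± 0.13) were higher, and 1 of the 7 was the rule gene Gad2, whose value is fixed in part by the choice of nuclei. DESeq2 called 14 genes for Ddc, 7 for Isl1, 2 for Dlx6os1 and 0 for Esr1. Without single mice the counts ran from 3 to 8 for Dlx6os1 (3 without Day 1 FGF1 mouse 1 or Day 5 FGF1 mouse 37, 5 without Day 1 vehicle mouse 1, Day 1 vehicle mouse 3 or Day 5 vehicle mouse 28). They ran from 2 to 11 for Esr1 (2 without Day 1 vehicle mouse 3 or Day 5 FGF1 mouse 37, 11 without Day 1 FGF1 mouse 1) and from 7 to 18 for Isl1 (7 without Day 1 FGF1 mouse 1 or Day 5 vehicle mouse 28, 9 without Day 1 vehicle mouse 3).

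GABA nuclei made up 39.9%, 42.6% and 40.0% of the unmapped nuclei of Day 1 FGF1 mice 1 to 3 and 47.4%, 45.8% and 48.9% of those of Day 1 vehicle mice 1 to 3. The groups did not overlap (40.8 ± 1.57% against 47.4 ± 1.52%, SD, n = 3 each), with an exact two-sided permutation p of 0.1, the smallest that 3 mice against 3 can give. The depth of the GABA nuclei moved with this difference. Their median UMI count was 1999, 2737 and 2563 in FGF1 mice and 3736.5, 3350.5 and 2932.5 in vehicle mice. With every nucleus thinned to 1500 UMIs and the rule applied again, the shares were 31.6 ± 2.86% and 31.8 ± 1.78%. Thinning left out 467 of 4231 unmapped nuclei of the Day 1 FGF1 mice as too shallow and 0 of 2144 of the vehicle mice. The share of Slc17a6 nuclei was 11.2 ± 2.01% and 11.0 ± 1.85%. On Day 5 the GABA share was 46.0% and 33.4% in FGF1 mice and 39.1% and 52.1% in vehicle mice, and the groups overlapped. The mean difference of -5.89 percentage points turned to 0.411 without FGF1 mouse 45 and to 0.618 without vehicle mouse 38.

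On Day 1 after FGF1, 3 genes differed in the GABA nuclei of 11325 tested (0.0265%; edgeR quasi-likelihood test, FDR below 0.05), all higher and all on the list of glial response genes of FGF1. Serpina3n, a secreted protease inhibitor (chromosome 12, 104406729 to 104414329, plus strand), had 45.9, 53.4 and 39.7 CPM in FGF1 mice 1 to 3 and 3.54, 6.13 and 7.18 in vehicle mice 1 to 3. Every FGF1 mouse was above every vehicle mouse, by 3.04 ± 0.34 on the log2 scale (FDR 0.0430). Within the 3 batches given in the deposited metadata, each with 1 mouse of each group, its log2 difference was 2.46, 3.48 and 2.45. Values within batches are differences of log2 CPM with a prior count of 2, which draws low levels together, so they are smaller than the ratios of the CPM printed here.

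Gfap, the astrocyte intermediate filament gene (chromosome 11, 102887336 to 102900912, minus strand, overlapped by the antisense gene Gm26668), had 59.9, 43.7 and 28.6 CPM in FGF1 mice and 3.54, 4.09 and 7.18 in vehicle mice. The groups did not overlap (3.25 ± 0.41, FDR 0.0459; 2.84, 3.19 and 2.45 within batches). Tm4sf1, a tetraspanin-like membrane protein gene (chromosome 3, 57285611 to 57301988, minus strand), had 21.7, 15.2 and 20.6 CPM against 0.886, 1.02 and 1.197, from 1 or 2 UMIs in each vehicle mouse. It was higher by 4.12 ± 0.49 (FDR 0.0430; 3.16, 2.87 and 3.19 within batches).

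The 3 genes were higher in every setting in which they were fitted (log2 fold change 2.76 to 4.27), but their calls depended on the setting. No gene was called without vehicle mouse 1, FGF1 mouse 2, vehicle mouse 2 or vehicle mouse 3, with batch as a block, with nuclei thinned to 1500 UMIs or in the nuclei with no UMI of a non-neuronal marker. In those nuclei the log2 fold change of Serpina3n was 2.77 (FDR 0.992). They numbered 508, 252 and 89 in FGF1 mice 1 to 3 and 82, 159 and 85 in vehicle mice 1 to 3. With these fewer nuclei 6818 genes were tested, so the missing call there does not show a smaller change. DESeq2 called 13 genes, 12 higher and 1 lower. Without FGF1 mouse 1 and vehicle mouse 2, edgeR called 13 genes, 5 higher and 8 lower.

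Of the 14 genes on the list of glial response genes, 13 were higher in every FGF1 mouse than in every vehicle mouse (unscaled CPM), and Hbegf, a growth factor gene of the EGF family, was not (11.0, 4.15 and 1.53 against 2.51, 3.71 and 3.56). The list was drawn up with results of these samples known, so it is no independent evidence of its direction. Over all genes tested, 1267 (11.2%) did not overlap between the groups. The low-count filter left 10 of the 14, and 3 were called. Members such as the 3 called genes (Serpina3n, Gfap and Tm4sf1), Timp1 and Cd44 passed the filter through the FGF1 mice. Neither the direction of the 3 calls nor the log2 fold changes of the 10 (2.12 to 4.12) therefore stand for the list.

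The 7 that were not called have FDRs of 0.149 to 0.764. Vim, a filament gene, had 63.2, 33.4 and 30.1 CPM against 2.66, 6.13 and 8.38. Timp1, a metalloproteinase inhibitor, had 35.0, 15.2 and 12.7 against 0, 2.04 and 1.197, and it lies inside the synapsin gene Syn1 on the opposite strand. FGF1 mouse 1 was the highest of the 6 for both. Cd44, a hyaluronan receptor gene, had 7.24, 12.1 and 14.3 CPM against 0.886, 0.511 and 1.197, from 1 UMI in each vehicle mouse. The S100 genes S100a6, S100a10 and S100a11 (log2 fold changes 2.99, 2.12 and 2.65) and Anxa2 (2.36) were the others tested. Lgals3, Tagln2, Hbegf and Nes were too low to be tested, with 27, 58, 36 and 15 UMIs over the FGF1 mice and 4, 10, 13 and 1 over the vehicle mice.

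The same genes stood far higher in astrocytes. In unscaled CPM, Serpina3n was 44.9, 52.2 and 38.3 in the GABA nuclei of FGF1 mice 1 to 3, and 755, 1060 and 602 in their astrocytes. Gfap was 58.7, 42.7 and 27.6 in GABA nuclei and 2649, 2671 and 1781 in astrocytes. Over the list, the level in GABA nuclei of FGF1 mice was 1.82% to 10.6% of that in astrocytes (median 5.63%). It was 1.74% to 11.2% in Slc17a6 nuclei (median 5.67%) and 1.86% to 14.6% in nuclei with none of the 4 genes (median 6.27%). In vehicle mice, where astrocytes had less of these transcripts, the level in GABA nuclei was 1.06% to 66.4% of that in astrocytes (median 18.2%). The 7 astrocyte marker genes stood in GABA nuclei at 1.95% to 4.69% of their astrocyte level in FGF1 mice (median 2.78%) and at 2.02% to 3.90% in vehicle mice (median 3.65%).

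By nucleus, Serpina3n UMIs were present in 10.5% of the GABA nuclei of FGF1 mice and 2.19% of those of vehicle mice, against 63.1% and 8.80% of astrocytes. Gfap was seen in 11.6% and 1.59% of GABA nuclei and in 93.1% and 42.4% of astrocytes. Markers of other cell types were lower in FGF1 mice or overlapped between the groups. The summed level of the astrocyte markers in GABA nuclei was 127 to 178 CPM in FGF1 mice and 178 to 249 in vehicle mice, that of oligodendrocyte markers 79.7 to 93.1 and 151 to 180, and that of tanycyte and ependymal markers 16.6 to 29.1 and 41.3 to 52.8. Microglia markers (28.5 to 76.7 against 44.4 to 49.8), OPC markers (5.34 to 12.3 against 3.56 to 7.95) and endothelial and mural markers (13.4 to 30.7 against 5.87 to 16.6) overlapped. No listed marker was at 0 in the GABA nuclei. Of 7 listed astrocyte and 6 listed oligodendrocyte markers, 6 and 5 were tested and none was called. All 11 tested had log2 fold changes below 0 (medians -0.72 and -0.84), and the markers too low to be tested need not share that sign. The part of free RNA from glia in the 3 calls was not tested.

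**Figure D4:**
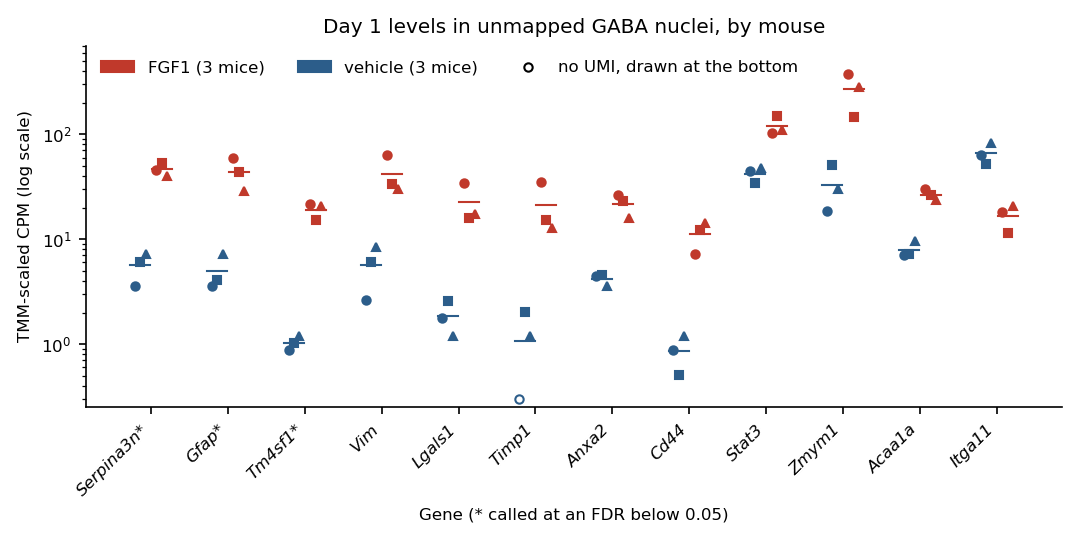
TMM-scaled CPM (vertical axis, log scale) of 12 genes (horizontal axis) is shown for each Day 1 mouse, with circles, squares and triangles for mice 1, 2 and 3, horizontal lines for group means and an open symbol for a mouse with no UMI. Serpina3n lies between 39.7 and 53.4 in FGF1 mice and between 3.54 and 7.18 in vehicle mice, and Itga11 is lower in every FGF1 mouse.

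Outside the glial list, the genes with the smallest p were not called. Stat3, the transcription factor downstream of gp130 and leptin receptors, had 103, 148 and 109 CPM in FGF1 mice and 44.3, 34.2 and 47.9 in vehicle mice (1.53 ± 0.25, FDR 0.149). It passed with DESeq2, with no low-count filter and without FGF1 mouse 1 and vehicle mouse 2. Itga11, a collagen-binding integrin gene, had 18.1, 11.5 and 20.6 CPM against 62.9, 52.1 and 82.6 (-1.99) and passed in the same 3 settings. Both were separated between groups in all 3 batches. Zmym1 had 379, 146 and 281 CPM against 18.6, 50.6 and 29.9. Galectin-1 (Lgals1) had 34.6, 15.8 and 17.5 against 1.77, 2.55 and 1.197. The peroxisomal thiolase gene Acaa1a (1.78) and Tspan17 (1.45) were also higher in every FGF1 mouse.

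Genes induced by FGF receptor signalling through MAPK had log2 fold changes mostly above 0 and no call. Of 13 listed feedback genes 8 passed the low-count filter and 7 of these were above 0. Low members such as Dusp6 passed through the FGF1 mice, so these values do not stand for the list. The abundant members Spred1 (0.62), Spred2 (0.53), Spred3 (0.95) and the ETS factor Etv5 (0.97) did not pass. Dusp6, an ERK phosphatase gene singled out after its values were seen, had 9.3, 9.1 and 7.9 CPM in FGF1 mice and 1.8, 1.0 and 2.4 in vehicle mice (2.45 ± 0.54, FDR 0.544). The FGF receptor and ligand genes had a median of 0.09 over 10 tested.

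Neuronal gene groups gave no call on Day 1. Against a median log2 fold change of 0.02 over all genes, the median was 0.32 for GABA-lineage factors (15 tested), 0.00 for excitatory-lineage factors (6), 0.25 for peptides (18), 0.18 for adhesion genes (30), 0.12 for potassium channels (23), 0.09 for sodium and calcium channels (17), 0.01 for GABA receptors (18), 0.06 for ionotropic glutamate receptors (17) and 0.11 for hormone and peptide receptors (22). Stress-related lists had none either. Glucocorticoid-responsive genes (9) had a median of -0.26, immediate early genes (3) -0.13, acute-phase and gp130 genes (4) 0.47 and heat shock genes (8) 0.39. The chaperone gene Hspa8 was high in FGF1 mouse 1 (809 CPM) and vehicle mouse 2 (679 CPM) and lay between 157 and 334 in the other mice. These are the 2 mice at the same end of the first principal component.

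The Day 1 response of GABA nuclei was then compared with that of Slc17a6 nuclei within the same 6 mice. Of 9890 genes, 6 (0.0607%) had a different response. The log2 fold change in GABA nuclei minus that in Slc17a6 nuclei was above 0 for 3 and below 0 for 3, and DESeq2 called 0 (82 at an unadjusted p under 0.05). Erbb4, a neuregulin receptor gene, averaged 1048 ± 231 CPM in FGF1 and 1044 ± 330 in vehicle mice in GABA nuclei, and 1766 and 1248 in Slc17a6 nuclei (difference of log2 fold changes -0.53 ± 0.10, FDR 0.00203). Nnat had 395, 58.0 and 62.7 CPM in the GABA nuclei of FGF1 mice 1 to 3 and 509, 532 and 330 in those of vehicle mice, with 589, 145 and 121 against 589, 559 and 369 in Slc17a6 nuclei (-0.61 ± 0.14, FDR 0.0405). It was low in FGF1 mice 2 and 3 in both classes, and it lies inside Blcap on the opposite strand.

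The metabotropic receptor gene Grm5 (0.45 ± 0.10), the non-coding RNA gene RP23-231J2.1 (0.59 ± 0.13) and D730003I15Rik (3.95 ± 0.93) went the other way, and the glial and neuronal factor Nfia (-1.02 ± 0.24) went with Erbb4. The value of D730003I15Rik rests on 0, 1 and 2 UMIs in the Slc17a6 nuclei of FGF1 mice. RP23-231J2.1 changed sign, to -0.54, in nuclei without a non-neuronal marker UMI. Without FGF1 mouse 2, FGF1 mouse 3, vehicle mouse 2 or vehicle mouse 3, 2 genes passed the threshold. The glial response genes showed no called difference between the classes. Serpina3n averaged 46.8 and 5.68 CPM in GABA nuclei and 40.0 and 5.45 in Slc17a6 nuclei (-0.09 ± 0.77).

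Agrp neurons, a GABA neuron type that the annotation could name, were the other class compared. The GABA nuclei and the 227 Day 1 Agrp neuron nuclei (15 to 96 per mouse) differed in their response in 57 of 8726 genes (0.653%), the log2 fold change in GABA nuclei minus that in Agrp neurons being above 0 for 24 and below 0 for 33. Pcdh15, a protocadherin gene, had 1676, 2626 and 2216 CPM in the GABA nuclei of FGF1 mice and 1790.2, 1201 and 1819 in those of vehicle mice, which overlap. Scaled for the Day 1 test on GABA nuclei alone, the values were 1655, 2354 and 2006 against 1630, 1150 and 1651, which do not. In Agrp neurons it had 2848, 3309.6 and 2823 CPM against 894, 854 and 555, which do not overlap either (difference of log2 fold changes -1.48 ± 0.29, FDR 0.000402).

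The Kcnq potassium channel genes, which carry the M-type current, and the protease gene Adam12 had differences of the same sign. Kcnq3 averaged 412 and 380 CPM in the GABA nuclei of FGF1 and vehicle mice and 717 and 160 in Agrp neurons (-2.03 ± 0.32), and Kcnq5 670 and 526 in GABA nuclei and 784 and 156 in Agrp neurons (-1.72 ± 0.32). Adam12 averaged 50.4 and 27.7 CPM in GABA nuclei and 246 and 19.3 in Agrp neurons (-2.75 ± 0.63). In the Day 1 test within GABA nuclei alone, Pcdh15 (0.44), Kcnq3 (0.11) and Adam12 (0.87) were not called, with FDRs of 0.83 to 0.96, and Pcdh15 and Adam12 were higher in every FGF1 mouse there. These 3 genes form the list of Agrp neuron response genes, drawn up with results of these samples known.

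The channel gene Trpm3 and the netrin-family adhesion gene Ntng1 differed in the other direction. Trpm3 had 617, 920 and 1043 CPM in the GABA nuclei of FGF1 mice and 914, 548 and 1074 in those of vehicle mice, against 121, 121 and 137 and 460.2, 459 and 301 in Agrp neurons (1.76 ± 0.35). Ntng1 averaged 258 and 157 in GABA nuclei and 120.0 and 300.3 in Agrp neurons (1.77 ± 0.34). Lcorl (-1.93), Wbscr17 (-1.70), Sst (-1.68) and Il1rapl2 (1.65) were also among the 10 with the smallest p. Serpina3n averaged 49.97 and 6.07 CPM in GABA nuclei and 346 and 18.4 in Agrp neurons (-1.96 ± 0.87, FDR 0.544).

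Hcrt, the orexin gene, had the smallest p but rested on 1 mouse. In Agrp neurons it had 1700 CPM in FGF1 mouse 1, 0 in FGF1 mice 2 and 3 and at most 27.0 in vehicle mice, and in GABA nuclei 143, 1.35 and 1.75 against 8.76, 69.3 and 3.96. Its difference was -5.08 ± 0.63, and 1.48 without FGF1 mouse 1. The number of genes called was 30 without FGF1 mouse 1, 23 without FGF1 mouse 2 and 16 without vehicle mouse 1 or vehicle mouse 2, and DESeq2 called 23.

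**Figure D5:**
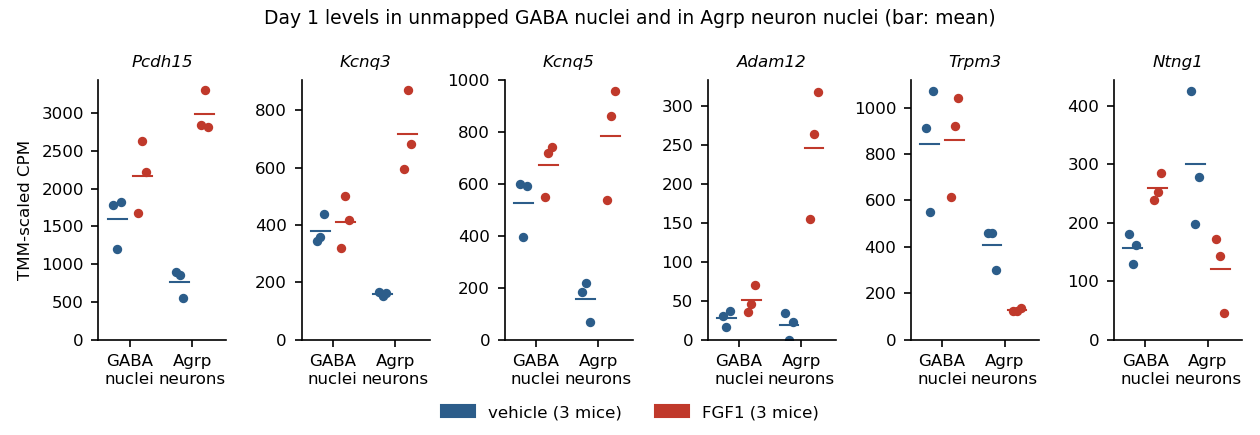
TMM-scaled CPM (vertical axes) of 6 genes is shown for each Day 1 mouse in unmapped GABA nuclei and in Agrp neuron nuclei (horizontal axes), with vehicle mice in blue, FGF1 mice in red and bars for the mean of 3 mice. Kcnq3 averages 717 CPM in FGF1 and 160 in vehicle mice in Agrp neurons and 412 and 380 in GABA nuclei.

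On Day 5 no gene of 12260 was called in the GABA nuclei (0%; 1128 genes had an unadjusted p under 0.05). DESeq2 called 10, all lower in FGF1 mice. The 2 mice per group separate easily, since 5122 genes (41.8%) did not overlap between the groups. The smallest FDRs, 0.0952 to 0.134, belonged to lower genes. Snrnp70, a splicing factor gene, had 209 and 176 CPM in FGF1 mice 37 and 45 and 375 and 392.1 in vehicle mice 28 and 38. Mylip, a ubiquitin ligase gene that targets lipoprotein receptors, had 827 and 842 against 1471 and 2171 (-1.12), and Ndufb2, a respiratory complex I gene, 15.4 and 14.1 against 87.5 and 36.6 (-2.20). Nt5c, Acer1, Med28, Gm14009 and 3 clone-named genes (2210016L21Rik, 2700062C07Rik and 2810428I15Rik) complete the 10 with the smallest p.

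The mitochondrial share of UMIs in GABA nuclei moved with the groups on Day 5 (0.0129% in FGF1 and 0.0255% in vehicle mice), as did the ribosomal share (0.835% and 1.05%), neither overlapping, and their part in these values was not tested. The count depended on the mice and the fit. With batch as a block, 254 genes were called (62 higher, 192 lower). The count was 36 without FGF1 mouse 37, 1 without FGF1 mouse 45, 0 without vehicle mouse 28 and 74 without vehicle mouse 38. Each of these fits leaves 1 mouse in a group, which is assumed to vary like the 2 mice of the other group.

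Most genes of the synaptic and channel lists had small log2 fold changes above 0 on Day 5. Of 30 adhesion genes, 29 had log2 fold changes above 0, with a median of 0.28 against -0.01 over all genes, and 18 did not overlap, where 41.8% of all genes did not. Of 23 potassium channel genes 20 were above 0 (median 0.21), 14 without overlap, such as Kcnd2 with 3097 and 2705 CPM against 2209.9 and 1961. GABA receptor and scaffold genes (15 of 20 above 0, median 0.25), ionotropic glutamate receptors (14 of 17, 0.23), sodium and calcium channels (14 of 17, 0.15) and pan-neuronal markers (5 of 5, 0.16) leaned the same way. None of these genes was called. Most peptide genes were below 0, 13 of 18, with a median of -0.47. Only 6 of the 18 did not overlap, against 41.8% of all genes, and 3 of these 6 were higher in FGF1 mice. Oxt, singled out after its values were seen, averaged 1.46 ± 0.62 CPM in FGF1 and 17.5 ± 17.3 in vehicle mice.

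The Day 1 genes were at low levels on Day 5. In unscaled CPM, Serpina3n had 4.92 and 6.30 in the GABA nuclei of FGF1 mice and 4.11 and 0 in those of vehicle mice, and it was too low to be tested. The 0 of vehicle mouse 38 allows up to 5.40 CPM at its depth. Gfap averaged 9.35 ± 6.71 scaled CPM in FGF1 and 3.40 ± 2.59 in vehicle mice (1.92 ± 0.76, FDR 0.489). Of the 6 MAPK feedback genes tested, the median was 0.12. Itga11 was again lower, at 15.1 ± 3.97 against 41.2 ± 15.6 CPM (-1.31 ± 0.34, FDR 0.325).

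The change in response from Day 1 to Day 5 was tested for 13185 genes, and none was called (0%; 419 genes had an unadjusted p under 0.05, and 259 with DESeq2, which called 0). Stat3 had the difference of -1.79 ± 0.38 between its Day 5 and Day 1 log2 fold changes, and Serpina3n -2.10. Neither passed after adjustment.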

How the data were processed

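Single-nucleus libraries (10x Genomics 3′ v2, 1 per mouse) of 10 mice were used. The authors made the deposited UMI counts with Cell Ranger 1.2 on mm10 with introns, kept nuclei within a range of genes detected, removed those over 5% mitochondrial or ribosomal UMIs and ran no doublet caller on nuclei. Labels were transferred from published datasets, and the deposited confidence is a fraction from 0 to 1. The whole-cell data were not used here, since the authors had removed neurons from them. The deposited metadata give each mouse a batch, with 1 mouse of each treatment in each; what a batch was is not stated there.

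Raw counts of the GABA nuclei were summed per mouse and tested with edgeR 4.0.16 (R 4.3.3; filterByExpr, TMM, robust quasi-likelihood fit, Benjamini-Hochberg FDR below 0.05 over all genes tested, no covariate). Comparisons of classes in the same mice had mouse as a block, and the 4 rule genes were left out of the calls. In the subsets by lineage gene, only the gene that defined the subset was left out. DESeq2 1.42.0, other scaling, no low-count filter, stricter rules, thinning to 1500 UMIs, batch or replicate blocks and leaving out each mouse were alternatives. On simulated counts with the Day 1 design, 91% of 100 genes changed 4-fold and 25% of 100 changed 2-fold were recovered. With the Day 5 design these were 100% and 42%, and with the class design 100% each. Unchanged genes were called too, 3, 9 and 12 in the 3 designs. Every simulated gene of a design had the same coefficient of variation between mice (0.28, 0.15 and 0.05). The recovered shares therefore need not hold for genes with more spread in the data. P-values rest on the spread between mice, which the fit draws in part from all genes, and intervals from few mice are wide. In the comparisons of responses, p-values of the named genes were those of a normal distribution for the log2 fold change over its SE. A gene's own spread between mice entered little there, as for Hcrt, so these calls need not hold in each mouse.

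The GABA nuclei and the gene lists were chosen with earlier results of these data known. Named genes were all called genes where at most 30, the 10 with the smallest p where under 5 were called, called list members, and up to 4 abundant members of lists with no call. In the class comparison they were the 10 higher and 10 lower with the smallest FDR at an absolute log2 fold change of at least 1 and called members of the lists. In comparisons of responses they were the called genes up to 10 and the Agrp neuron response genes, and in subsets the 5 largest changes at 10 CPM or more. A minimum of 10 nuclei per mouse was set. Coordinates are from GENCODE on GRCm38, where 207 of 210 named genes were found. Whether counting used strand is not given in the sources used here beyond the name of the tool. Some genes that the naming rule picked are not reported here.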

Additional observations from a re-analysis of the deposited data

Results flagged for a closer look

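A test of the difference itself found genes whose Day 1 response differed between the GABA nuclei and a second class of the same mice. Values are the log2 fold change (FGF1 over vehicle) in GABA nuclei minus that in the other class. Against the Slc17a6 nuclei these were Erbb4 (-0.53), RP23-231J2.1 (0.59), Grm5 (0.45), Nnat (-0.61), D730003I15Rik (3.95) and Nfia (-1.02), none of which DESeq2 called. Against the Agrp neurons 57 genes were called (24 above 0 and 33 below 0), and only those picked by the naming rule are listed. These included Hcrt (-5.08), Kcnq3 (-2.03), Lcorl (-1.93), Wbscr17 (-1.70), Kcnq5 (-1.72), Ntng1 (1.77), Pcdh15 (-1.48), Trpm3 (1.76), Sst (-1.68), Il1rapl2 (1.65) and Adam12 (-2.75). Hcrt rested on Day 1 FGF1 mouse 1.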

How the results depend on the processing

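On Day 1, where 3 genes were called, DESeq2 called 13, no low-count filter gave 8, at least 2 UMIs gave 1, nuclei without a non-neuronal marker UMI, thinned nuclei and batch as a block gave 0, and leaving out FGF1 mouse 1 with vehicle mouse 2 (chosen after seeing the data) gave 13. Without single mice the count was 0 to 4. On Day 5, where 0 were called, DESeq2 called 10, no filter gave 175 (19 higher, 156 lower), nuclei without a non-neuronal marker UMI 21, thinned nuclei 36, batch as a block 254, and leaving out single mice, which leaves 1 mouse in a group and takes the spread from the other group, 0 to 74. The 310 genes of the class comparison, of 8607 tested, became 191 with DESeq2 and 237 to 308 without single mice. They became 112 of 4756 tested with at least 2 UMIs and 124 of 4322 without nuclei holding a non-neuronal marker UMI. After thinning they were 158 of 5712, and with no filter 439 of 20339 (302 higher, 137 lower, against 116 and 194). The 6 genes of the comparison with Slc17a6 nuclei became 0 with DESeq2 and after thinning, 2 with at least 2 UMIs, 3 without nuclei holding a non-neuronal marker UMI and 2 to 4 without single mice. The 57 against Agrp neurons became 23 with DESeq2 and 16 to 69 without single mice. The cause of these shifts was not tested. Reversed values were RP23-231J2.1 (-0.54 without nuclei holding a non-neuronal marker UMI) and Hcrt (1.48 without Day 1 FGF1 mouse 1, though -8.85 without vehicle mouse 2). Between the days 0 genes were called in every setting run.

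The Day 1 difference in share was -0.189 percentage points after thinning, and that of Day 5 ran from -12.4 to 0.618 without single mice. The subsets by lineage gene were chosen after seeing the data, because the planned subsets by peptide could not be run. For these, DESeq2 called 2 genes for Dlx6os1, 0 for Esr1 and 7 for Isl1, and counts without single mice were 3 to 8, 2 to 11 and 7 to 18. Counting each gene in each setting as a fit, the genes picked by the naming rule kept their sign in 233 fits of 16 genes from Day 1, 119 fits of 10 from Day 5 and 1019 fits of 63 from the class comparison. These genes were picked on the main fit and the fits share most of their counts, so this is no independent evidence of direction.

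Replicate numbers gave no clear pairing of the Day 1 mice: the deviations of same-numbered mice correlated at -0.126, -0.135 and 0.267. Those of mice in the same batch correlated at -0.335, -0.0217 and -0.387. The largest correlation, 0.420, was that of FGF1 mouse 1 with vehicle mouse 2, which share neither number nor batch. These mice also stood at the same end of the first principal component. With the replicate block, 3 genes were called. Depth limits the low genes most, since the smallest Day 1 sum held 652263 UMIs, and 2-fold changes were mostly missed in the Day 1 simulation.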
